A study of Mus musculus with 4 samples.

Results

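Type 1 conventional dendritic cells (cDC1) are the dendritic cells that carry the surface receptors Xcr1 and Clec9a, and here they were selected on raw gene counts in single leukocytes from mouse liver. A cDC1 was a cell with at least 2 UMIs (unique molecular identifiers, each standing for 1 captured RNA molecule) summed over Xcr1 and Clec9a, 0 of Siglech, a gene of plasmacytoid dendritic cells, and 0 of the T-cell receptor genes Cd3d, Cd3e and Cd3g. Only kept cells were searched, those with 600 to 6000 detected genes and at most 5% of their UMIs from mitochondrial genes. The rule found 536 cDC1 among 36286 kept cells of 4 libraries, which is 1.48% (exact 95% binomial interval 1.36 to 1.61). The counts of these 6 genes chose the members, so their levels describe the selection only, and the gate is not the cell annotation of the study.

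Liver cDC1 take up remains of dead cells and present the proteins to CD8 T cells on MHC class I molecules, which is called cross-presentation. They depend on the transcription factors Irf8 and Batf3 and on the growth factor Flt3 ligand, and their receptor Xcr1 binds the chemokine Xcl1 of NK cells and activated CD8 T cells. The microRNA miR-146a is induced by NF-kB, lowers the kinase Irak1 and the adaptor Traf6, which carry signals from Toll-like receptors, and so limits NF-kB, whereas Ccl5 is a chemokine for T cells and other leukocytes.

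The cells were CD45+ liver cells sorted by flow cytometry from female C57BL/6 mice and were sequenced with 10x Genomics 5' v2 chemistry, with 1 library per group. Young WT mice were about 8 weeks old and untreated. The treated groups were WT, miR-146a-/- and miR-146a-/- Ccl5-/- (DKO) mice of 36 weeks, which had received the liver carcinogen diethylnitrosamine (DEN) at 25 mg/kg on day 14, were weaned on day 21 and then ate a choline-deficient diet with 60% fat (CDHFD). How many mice a library pools is not given, and age, DEN and diet differ together between young and treated WT, so their parts cannot be told apart.

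The microRNA deleted in both knockout groups is shown first, because its seed decides which transcripts it can pair with. Its mature sequence in RefSeq, build GRCm38.p6, is given 5' to 3' with the seed (bases 2 to 8) in capitals, and it lies on the minus strand at chr11:43374435-43374456.
miR-146a-5p: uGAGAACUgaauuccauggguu
The complement of the seed, AGTTCTC, was searched for on the transcribed strand in the longest 3' UTR of each gene, in the GENCODE M21 annotation on the GRCm38 genome, and this search was added after the data had been seen. It was found in 2345 of 21020 genes (11.2%), and in 5 of the 18 genes of the list of miR-146a targets and NF-kB genes: Irak1 and Irak2 with 2 matches each, Traf6 and Rel with 4 each, and Card10 with 1. The matches of the kinase gene Irak1 and the adaptor gene Traf6 are printed as windows of 3' UTR with the seed match in capitals, because these are the genes through which miR-146a is best known to act.
Irak1, minus strand, chrX:74015386-74015414: gactcagaggtcaaAGTTCTCatgcttgg
Irak1, minus strand, chrX:74015370-74015398: ttctcatgcttggaAGTTCTCatagtgtg
Traf6, plus strand, chr2:101697945-101697973: ccgctctggtgttgAGTTCTCatttagtt
Traf6, plus strand, chr2:101698009-101698037: ccctggaaggcttaAGTTCTCaagtactc
Traf6, plus strand, chr2:101698821-101698849: gtactttggagtctAGTTCTCagggagcc
Traf6, plus strand, chr2:101701345-101701373: gactttgctactgcAGTTCTCaaacatgg
A match of these letters is a description and not a tested site, and the levels of these genes in cDC1 are given with the NF-kB genes.

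The deposited matrices held 10985, 9120, 8393 and 10623 cells for young WT, treated WT, miR-146a-/- and DKO, and values are given in this order of the libraries throughout. Of these, 10283, 8329, 7824 and 9850 were kept, with a median of 6782, 8210, 7910 and 7558 UMIs per kept cell. The cDC1 numbered 169, 129, 100 and 138, and they were deeper than the average cell, with a median of 21681, 21099, 25329 and 24036 UMIs per cDC1. Summed over cDC1, the libraries held 3604812, 2800468, 2469809 and 3243404 UMIs, and levels are UMIs of a gene summed over the cDC1 of a library, as counts per 1000000 UMIs of those cells (CPM). Intervals of CPM are exact 95% Poisson intervals, and those of log2 ratios are conditional binomial intervals. All intervals cover counting error only, since 1 library per group leaves the spread between mice unknown and allows no test. Those of CPM and log2 ratios treat each UMI as independent. They leave out the spread between cells and are too narrow where few cells hold most UMIs of a gene. Libraries shared 96 to 127 kept barcodes per pair, and no pair shared a cDC1 barcode. Doublets were not called, and those with a pDC or T cell were limited by the zeros for Siglech and the Cd3 genes, others by the maximum of 6000 genes. That maximum removed 26, 22, 13 and 20 cells that otherwise met the rule, 13.3, 14.6, 11.5 and 12.7% of such cells, against 1.37, 4.88, 2.59 and 1.36% of all cells within the other limits.

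The labels were checked first on the deleted chemokine. Ccl5 (ENSMUSG00000035042) stood at 208 CPM in young WT (95% interval 193 to 223), 708 in treated WT (678 to 740.3), 259.9 in miR-146a-/- (240.2 to 281) and 16.6 in DKO cDC1 (12.5 to 21.7). It was lowest in DKO, where 26 of 138 cDC1 held 54 UMIs in all, and in the other kept cells of that library it was 67.1 CPM against 6442, 12951 and 12888 in those of the other libraries. The mature microRNA is not measured by this chemistry, so the miR-146a genotype was not checked here.

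Levels of the cDC1 marker list checked the name of the cells. All 17 of the 19 markers that the rule does not use had UMIs in the cDC1 of every library, and their summed level was 8909.8, 6642, 9131 and 8438 CPM, lowest in treated WT. The rule's own genes, given as a description, were Xcr1 (ENSMUSG00000060509, chr9:123852315-123862029, minus strand of GRCm38) at 418 CPM in young WT, 230.3 in treated WT, 313 in miR-146a-/- and 260.2 in DKO cDC1 and Clec9a (ENSMUSG00000046080, chr6:129408862-129424763), a receptor for actin exposed by dead cells, at 676, 413, 470.5 and 489.6 CPM. Among markers outside the rule, Flt3, the receptor for Flt3 ligand, was found at 269, 226, 281 and 272 CPM, with 95% intervals of 253 to 287, 209 to 245, 261 to 303 and 254 to 290.5. Irf8, the factor that directs cDC1 development, had 1618, 1233, 1546 and 1387 CPM, and its partner Batf3 had 239.7, 206, 240.1 and 241. Wdfy4, a protein needed for cross-presentation, stood at 910.5, 659.9, 1005 and 909.5 CPM in cDC1 and at 264, 215, 199.7 and 223 in cells gated as type 2 conventional dendritic cells (cDC2). Naaa, an acid amidase of lysosomes, had 955, 619.9, 1079.8 and 938 CPM in cDC1 and 32.8, 28.1, 50.5 and 47.7 in all other kept cells. The heat map of markers by gate shows this list in cDC1, cDC2, mature dendritic cells, plasmacytoid dendritic cells (pDC) and B cells, each chosen by counts of their own genes.

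**Figure D1:**
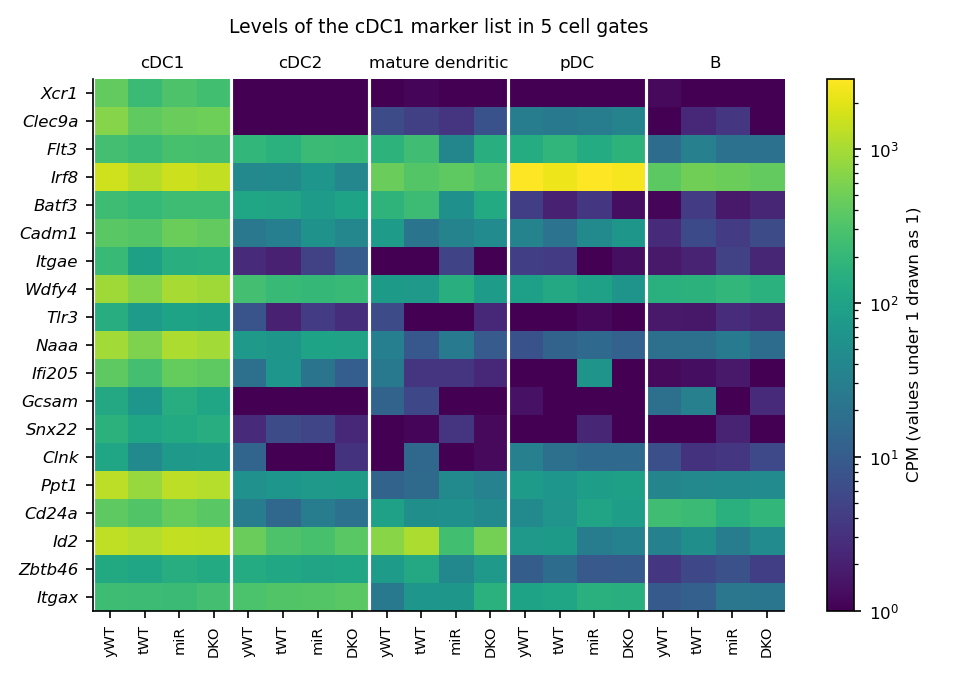
Levels of the 19 cDC1 markers (rows, color in CPM on a log scale) in the cells of 5 gates, with 4 columns per gate for young WT (yWT), treated WT (tWT), miR-146a-/- (miR) and DKO. Naaa, Ppt1 and Wdfy4 are brightest in the cDC1 columns, whereas Irf8 is also bright in pDC and Zbtb46 and Itgax in cDC2.

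The 20 genes that stood highest in cDC1 over all other kept cells, ranked by the library in which the difference was smallest, include Xcr1 and Clec9a of the rule. First among them was Gpr141b, an orphan G-protein-coupled receptor gene, with 152, 76.1, 100.4 and 101 CPM in cDC1 and 3.30, 1.08, 1.08 and 0.813 in the other kept cells. Tlr3, the receptor for double-stranded RNA, had 141, 78.6, 101 and 92.5 CPM against 3.76, 1.77, 1.90 and 2.30. Mycl, a transcription factor of the Myc family, stood at 153, 96.8, 93.5 and 130.1 CPM against 5.43, 3.31, 3.74 and 3.64. Further members were Ttc39a, P3h2, Snx22, Pdia5, Pianp, Htr7 (a serotonin receptor), Ffar4 (a receptor for long-chain fatty acids), Naaa, Rab7b, Anpep (aminopeptidase N), Hepacam2, Zfp366, Gcsam, Ppt1 (a lysosomal thioesterase) and Rtl8c, and the smallest log2 ratio over the 20 genes and 4 libraries was 3.81. Gcsam, Snx22, Naaa, Ppt1 and Tlr3 also stand on the marker list. The treated WT level was below the young WT level in all of the 20 genes but P3h2 and Htr7. Cells with 6 or more UMIs of Xcr1 and Clec9a were 82.8% of young WT and 58.9% of treated WT cDC1. Among such cells Ffar4 was higher in treated WT (89.7 CPM in young WT and 103 in treated WT), whereas Tlr3 was still lower (155 and 112). The part of this unequal share in the lower levels was not tested.

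The gate held cells of more than 1 kind, in proportions that differed between libraries. Cells with 6 or more UMIs of Xcr1 and Clec9a made up 82.8, 58.9, 73 and 69.6% of cDC1 (140, 76, 73 and 96 cells), the least in treated WT and the most in young WT. Both genes were detected in 145, 80, 83 and 98 cells. Just inside the threshold, the 17 young WT cells with 2 UMIs had 62.0 CPM of Naaa, and just outside it the 49 cells with 1 UMI had 62.6, whereas the 140 cells with 6 or more had 1044. In treated WT, Naaa was at 56.3 CPM with 1 UMI, 69.1 with 2, 89.0 with 3 to 5 and 874 with 6 or more. Lyz2, the lysozyme gene of monocytes and macrophages, was high in the cells with few counts of 2 treated libraries, at 1641 CPM in treated WT cells with 2 UMIs and 474 in those with 6 or more, and in DKO at 4208 and 369.8, and young WT went the same way at 3705 and 651. In miR-146a-/- Lyz2 was at 180.4 CPM in the 9 cells with 2 UMIs, 992 in the 18 with 3 to 5 and 442 with 6 or more, and the cells with 2 UMIs held 1957 CPM of Ccr7, a gene of mature dendritic cells. Cells at 2 UMIs of both WT libraries thus had Naaa levels like those just outside the rule, and the part of these cells in each comparison was measured by repeating it at 6 or more UMIs, a threshold chosen after seeing the data. Free RNA was gauged in B cells, which lack both genes, and 3, 3, 2 and 1 of 1086, 649, 446 and 675 B cells had at least 2 UMIs, at a median of 5715, 7051, 7183 and 6939 UMIs per B cell, and 13, 4, 4 and 3 had at least 1. The histogram of the rule's counts shows a peak at 2 to 3 UMIs and a broad spread of cells above 10 in every library.

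**Figure D2:**
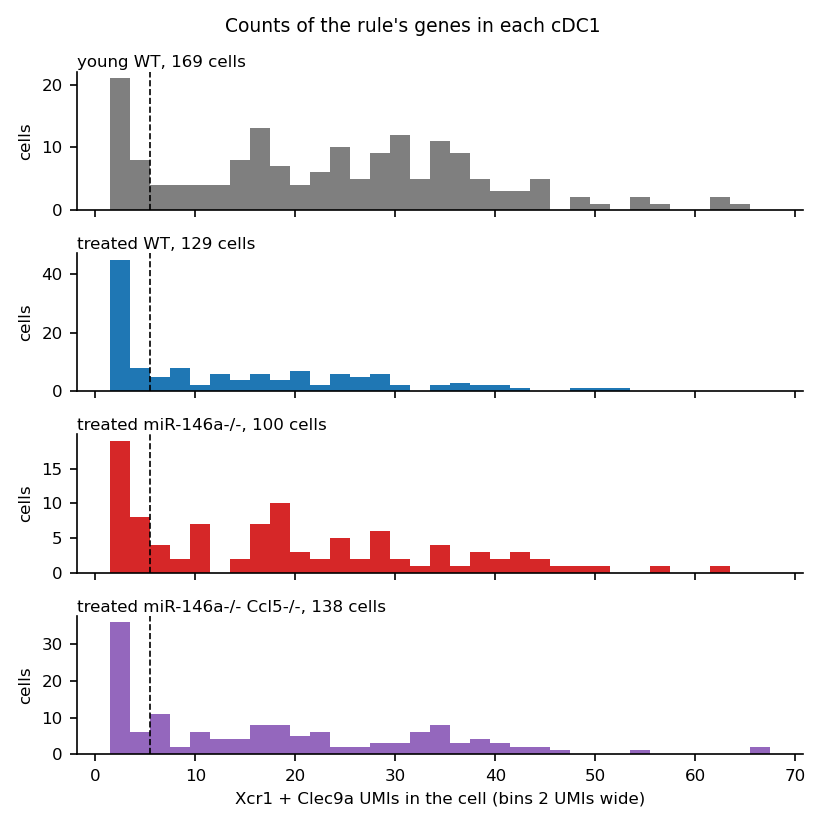
Number of cDC1 (y axis) by summed Xcr1 and Clec9a UMIs in the cell (x axis) in each library, with a dashed line below 6 UMIs. To its right lie 140, 76, 73 and 96 cells of young WT, treated WT, miR-146a-/- and DKO.

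The share of cDC1 among kept cells was 1.64% (1.41 to 1.91) in young WT, 1.55% (1.29 to 1.84) in treated WT, 1.28% (1.04 to 1.55) in miR-146a-/- and 1.40% (1.18 to 1.65) in DKO, with exact 95% intervals. The intervals of all 4 libraries overlapped. The share in miR-146a-/- minus that in treated WT was -0.271 percentage points (Newcombe 95% interval -0.637 to 0.0960), that in DKO minus miR-146a-/- 0.123 (-0.225 to 0.461), and that in treated WT minus young WT -0.0947 (-0.454 to 0.273). None of the 3 differences was detectable at this depth with the rule's threshold. Above the stricter threshold of 6 UMIs or more, the shares were 1.36, 0.912, 0.933 and 0.975%, and treated WT minus young WT was -0.449 points (-0.753 to -0.141), with the young WT share the highest of the 4. With every cell thinned to 2000 UMIs before gating, the shares were 1.33, 0.732, 0.737 and 0.699%, and treated WT minus young WT was -0.599 points (-0.899 to -0.298). The miR-146a-/- minus treated WT difference was 0.0206 (-0.276 to 0.321) at 6 or more UMIs, and DKO minus miR-146a-/- was 0.0416 (-0.255 to 0.328).

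Set against other dendritic cells, cDC1 were a smaller fraction in the treated libraries. They made up 64.3% (58.1 to 70.1) of all gated dendritic cells in young WT, 47.1% (41.0 to 53.2) in treated WT, 34.5% (29.0 to 40.3) in miR-146a-/- and 35.03% (30.3 to 40.0) in DKO. The young WT interval lay above the other 3, and the treated WT interval above those of both knockouts. The cDC1 counted here include 29, 53, 27 and 42 cells with 2 to 5 UMIs of Xcr1 and Clec9a, the most in treated WT. This fraction was not repeated at 6 or more UMIs, so the part of these cells in the gaps was not tested. The gate for cDC2 held 24, 56, 88 and 147 cells, that for mature dendritic cells 11, 55, 37 and 54 and that for pDC 59, 34, 65 and 55, so the fraction follows the number of cDC2 as well as that of cDC1. The plot of shares by threshold shows all kept cells as the base.

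**Figure D3:**
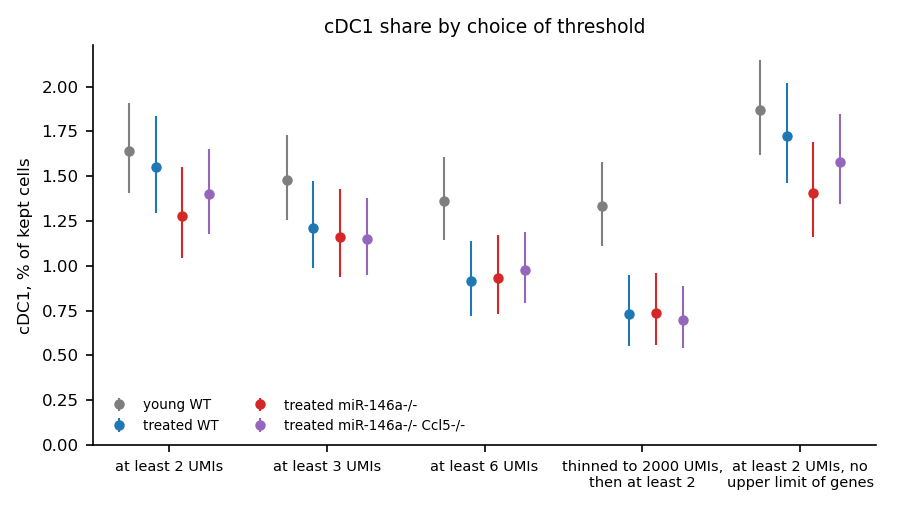
cDC1 as a percentage of kept cells (points, with exact 95% binomial intervals) under 5 ways of choosing them. The young WT share is highest at 6 or more UMIs (1.36% against 0.912, 0.933 and 0.975%), where its interval lies above that of treated WT but overlaps those of both knockouts.

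Markers of other cell types were measured in the same cells, since several comparisons move with them. The 8 monocyte markers, of which 7, 8, 8 and 8 were detected, summed to 1325, 1425, 782 and 1421 CPM and were lowest in miR-146a-/-, with Lyz2 the most abundant in every library at 917, 998, 496 and 1071 CPM. Macrophage markers (9, 9, 7 and 9 of 10 detected) summed to 119, 254, 89.5 and 396 CPM, highest in DKO, led by C1qb in each library, with Vsig4 at 0 in young WT, Marco in treated WT, Vsig4, Marco and Folr2 in miR-146a-/- and Folr2 in DKO. Markers of NK cells and type 1 innate lymphoid cells (8, 8, 4 and 7 of 8) summed to 196, 146, 7.69 and 188 CPM, with miR-146a-/- far below the rest. Gzma, a granzyme, led that list except in miR-146a-/-, where Klre1 did at 4.45 CPM and Klrb1c, Prf1, Eomes and Gzmb were at 0, and Eomes was also at 0 in DKO. Neutrophil markers (4, 2, 5 and 7 of 7) summed to 4.99, 6.43, 11.7 and 532 CPM, and the DKO value came almost wholly from 1 cell that held 99.7% of the S100a9 UMIs. Csf3r led the neutrophil list in both WT libraries and S100a9 in both knockouts, while Ly6g, Cxcr2 and Retnlg were at 0 in both WT libraries, S100a8 and S100a9 also in treated WT, and Cxcr2 and Retnlg in miR-146a-/-. B-cell markers (8, 7, 8 and 7 of 8) summed to 196, 166, 198 and 192 CPM, mostly Ighm, with Cd79a at 0 in treated WT. T-cell markers (7, 7, 4 and 6 of 10) summed to 48.5, 50.7, 41.3 and 49.6 CPM, mostly Cd8a, which many cDC1 of mouse lymphoid organs carry. At least 1 UMI of Cd79a, Ms4a1, S100a8, C1qa, Ncr1, Trac, Trbc2 or Alb was found in 77, 61, 44 and 53 cDC1.

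The remaining marker lists differed between libraries to unequal degrees. The 10 cDC2 markers (10, 10, 10 and 9 detected) summed to 221, 355, 209 and 331 CPM, led by Cd209a in young WT and by Klrd1 elsewhere, with Clec4a4 at 0 in DKO. The pDC list (8, 7, 7 and 9 of 10) summed to 278, 288, 314 and 296 CPM, mostly Bst2, an interferon-induced membrane protein, with Siglech at 0 by the rule. Patrolling monocyte markers (6, 6, 6 and 6 of 6) summed to 527, 615, 334 and 314 CPM, and their most abundant gene, Nr4a1, is also on the immediate early list. Hepatocyte markers (7, 6, 7 and 6 of 7) summed to 194, 137, 112 and 85.7 CPM, led by Trf, the transferrin gene, and endothelial markers (5, 4, 3 and 4 of 5) to 235, 220.3, 224 and 197 CPM, led by Dnase1l3. Erythroid markers (1, 2, 3 and 2 of 4) summed to 0.555, 0.714, 10.1 and 0.925 CPM. The hepatocyte sum was highest in young WT and lowest in DKO, and the endothelial sum differed little between libraries.

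In 3 comparisons, cDC1 of 2 libraries were set against each other, and a gene counted as measured when either library gave it a level of 50 CPM or more from no fewer than 20 UMIs. Some genes passed only through the library where they stood higher, so counts past 2-fold partly rest on the difference itself. Treated WT over young WT asks what age, carcinogen and diet change together, miR-146a-/- over treated WT what loss of the microRNA changes under treatment, and DKO over miR-146a-/- what loss of Ccl5 changes beyond it. The first 2 share the treated WT library and the last 2 the miR-146a-/- library, so a high or low value in a shared library enters both. Treated WT over young WT had 3120 such genes, of which 79 were at least 2-fold higher (2.53%) and 16 at least 2-fold lower (0.513%). In miR-146a-/- over treated WT, 16 of 3125 genes were at least 2-fold higher (0.512%) and 87 at least 2-fold lower (2.78%). In DKO over miR-146a-/-, 33 of 3077 genes were at least 2-fold higher (1.07%) and 41 at least 2-fold lower (1.33%). The median log2 ratio of all these genes was 0.046, -0.0074 and 0.018 in the 3 comparisons in that order, and it is the background for the medians of gene lists. Among cells with 6 or more UMIs, the numbers of genes at least 2-fold higher and lower were 37 and 9 for treated WT over young WT, 11 and 89 for miR-146a-/- over treated WT, and 14 and 13 for DKO over miR-146a-/-.

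The largest difference between treated and young WT cDC1 lay in the mature dendritic program, the genes that dendritic cells switch on as they mature and leave tissue for lymph nodes. In treated WT over young WT, 11 of 17 measured genes of the list were at least 2-fold higher and 0 lower, with a median log2 ratio of 1.66 against 0.046 over all genes. Among the higher genes, Fscn1, Ccl22, Cacnb3, Il4i1, Cd63 and Il12b were below 50 CPM in young WT and counted as measured only through treated WT. Ccr7, the receptor that guides dendritic cells to lymph nodes, stood at 94.3 CPM in young WT (95% interval 84.6 to 105), 448 in treated WT (424 to 474), 336 in miR-146a-/- (313 to 359) and 112 in DKO cDC1 (101 to 124). Its log2 ratio was 2.25 (2.08 to 2.43) in treated WT over young WT and -1.58 (-1.77 to -1.41) in DKO over miR-146a-/-, so the treated WT and miR-146a-/- libraries were high and young WT and DKO low. Fscn1, an actin-bundling protein of mature dendritic cells, had 38.6, 237, 148 and 147 CPM, and Ccl22, a chemokine for regulatory T cells, 15.5, 184, 303 and 122. Il4i1, a secreted amino acid oxidase, had 26.1, 104, 185 and 52.4 CPM, and Cd63, a tetraspanin of endosomes, 23.6, 149.6, 93.9 and 34.2. In DKO over miR-146a-/-, 8 of 17 genes were at least 2-fold lower (Ccr7, Ccl22, Cacnb3, Il4i1, Relb, Marcksl1, Ccl5 and Cd63) and 0 higher, with a median of -0.87 against 0.018. Cacnb3, Cd63 and Ccl5 were below 50 CPM in DKO and counted as measured only through miR-146a-/-. Ccl5 is deleted in DKO and counts among the 8 lower genes by genotype. In miR-146a-/- over treated WT, 1 of 16 genes was higher (Cd40) and 1 lower (Ccl5), with a median of 0.11 against -0.0074.

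Part of these levels rested on few cells, most for Ccr7 and Fscn1. UMIs of both Ccr7 and Fscn1 were found in 2, 11, 10 and 6 cDC1, and after thinning to 2000 UMIs in 1.19, 6.98, 5 and 2.90% of them. The 11 such cells of treated WT held 4041 CPM of Ccr7 and the other 118 cDC1 of that library 93.4. Ccl22 was spread more widely, with UMIs in 10, 32, 22 and 14 cDC1, and in treated WT 421 of its 516 UMIs lay outside those 11 cells, as did 153 of 290 of Il4i1. The 11 cells had little of the genes that mark cDC1, with Naaa at 7.94 CPM against 680.4 and Wdfy4 at 39.7 against 721. In the cells with 6 or more UMIs, where 0, 4, 1 and 1 cells with both genes were left, Ccr7 stood at 6.14, 313, 64.5 and 26.9 CPM. There the list had 8 of 11 genes at least 2-fold higher in treated WT over young WT (median 1.55), 3 of 8 lower in DKO over miR-146a-/- (median -0.73), and 6 of 13 lower and 1 higher (Ccl22) in miR-146a-/- over treated WT (median -0.64). The treated WT values of Ccr7 and Fscn1 at 6 or more UMIs rested on those 4 cells, which held 568 of 596 and 306 of 306 UMIs. Without cells with both genes among all cDC1, the median of the list in treated WT over young WT was 0.85, against 1.66 with them, and in miR-146a-/- over treated WT 0.36 against 0.11. The rise over young WT was thus smaller without these cells, and the sign of the median in miR-146a-/- over treated WT depended on the cells included. In the cells of the mature dendritic gate, which have at most 1 UMI of Xcr1 and Clec9a, the list summed to 18778, 18948, 6394 and 10372 CPM, against 1376, 3687, 3496 and 1849.9 in cDC1. The plot of gene lists shows each measured gene of 6 lists in the 3 comparisons.

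**Figure D4:**
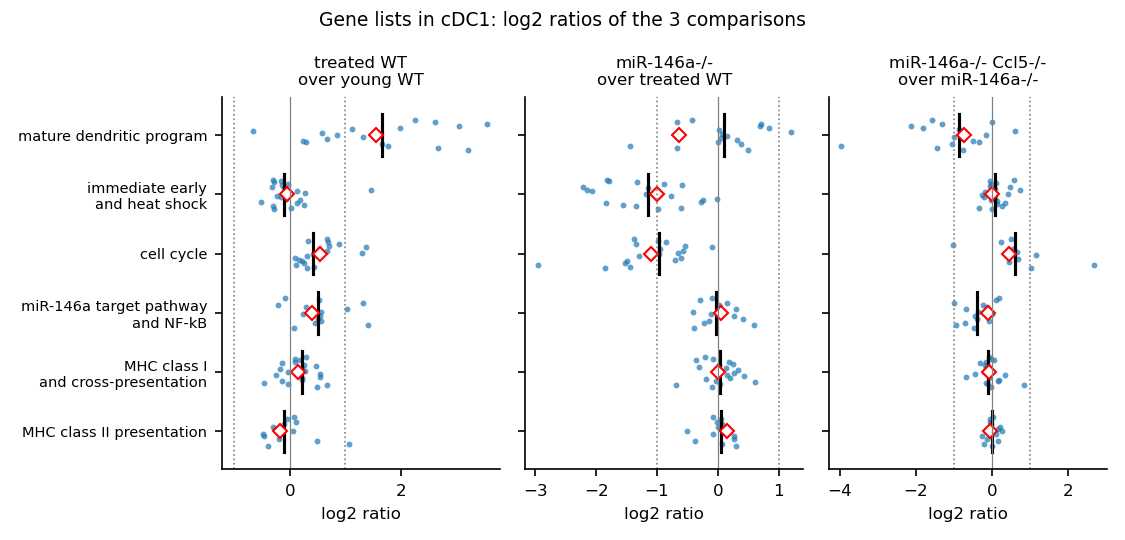
Log2 ratios (x axis) of the measured genes of 6 lists (points) in the 3 comparisons, with the list median (black bar), the median among cells with 6 or more Xcr1 and Clec9a UMIs (red diamond) and dotted lines at 2-fold. The mature dendritic program is shifted up in treated WT over young WT (median 1.66), the immediate early and cell cycle lists down in miR-146a-/- over treated WT (-1.14 and -0.97), and both MHC lists sit near 0.

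Among other genes with the largest rises in treated WT over young WT were several that also stood higher in the cells with Ccr7 and Fscn1. Mreg, which encodes melanoregulin, an organelle transport protein, had 3.88, 68.2, 75.3 and 24.0 CPM with a log2 ratio of 4.08 (3.35 to 5.03). Gclc, the catalytic subunit of the enzyme that starts glutathione synthesis, had 16.1, 107, 175 and 88.5 CPM and 2.72 (2.32 to 3.16), and in treated WT it stood at 671 CPM in cells with Ccr7 and Fscn1 and 51.0 in the rest. Zmynd15, a zinc finger gene, had 13.04, 84.6, 62.4 and 23.4 CPM, and Anxa3, an annexin, 13.3, 78.9, 42.1 and 34.2. Gadd45b, a stress sensor, had 53.8, 219, 239 and 73.4 CPM and a log2 ratio of -1.70 (-1.93 to -1.49) in DKO over miR-146a-/-. For all of these young WT was lowest, and at 6 or more UMIs Mreg was at 0.307, 31.5, 11.8 and 6.03 CPM and Gclc at 14.7, 56.6, 25.6 and 21.3 CPM, with treated WT highest. Cacnb3, a calcium channel subunit, reached 6.38, 53.9, 87.5 and 20.04 CPM and was at least 2-fold lower in DKO than in miR-146a-/-, as were Lad1, which encodes ladinin (4.44, 45.7, 104 and 16.0), the palmitoyltransferase Zdhhc14 (19.1, 42.9, 107 and 25.6) and Mab21l3 (9.99, 39.6, 88.3 and 24.4). Atxn1, which encodes the nuclear protein ataxin-1, fell too, with 18.3, 43.2, 72.9 and 22.5 CPM and a log2 ratio of -1.69 (-2.11 to -1.29) in DKO over miR-146a-/-, and in all kept cells but cDC1 it stood at 139, 185, 175 and 134. These last falls in DKO over miR-146a-/- were under 2-fold at 6 or more UMIs for Zdhhc14 (-0.92), Mab21l3 (-0.82) and Atxn1 (-0.64, and 0.12 without cells holding another type's marker), and past it for Cacnb3 (-1.64) and Lad1 (-2.74). At that threshold all of these genes were below 50 CPM in both libraries. Cacnb3 stood at 23.0 in miR-146a-/- and 7.24 in DKO, and Lad1 at 17.4 and 2.41.

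Genes at least 2-fold lower in treated than in young WT cDC1 held several that mark cDC1. Itgae, the integrin chain CD103 that binds E-cadherin of epithelial cells, stood at 222 CPM in young WT (95% interval 207 to 238), 92.5 in treated WT (81.6 to 104), 151 in miR-146a-/- (136 to 168) and 156 in DKO cDC1 (143 to 170.2). Its log2 ratio was -1.26 (-1.47 to -1.06) in treated WT over young WT, and the knockouts lay between both WT libraries. Itgae was found in 114, 49, 64 and 80 cDC1 and, after thinning, in 30.4, 13.2, 23 and 22.5% of them, against 0.370, 0.468, 1.35 and 0.447% of thinned B cells. Clnk, an adaptor of immune receptor signalling, had 106, 43.2, 71.3 and 80.8 CPM. Ctla2b, an inhibitor of cysteine proteases, fell furthest, with 124, 27.1, 17.01 and 33.0 CPM and a log2 ratio of -2.19 (-2.57 to -1.84), and was low in all treated libraries. Rtl8b (83.8, 28.2, 36.4 and 39.5), the calcium channel gene Cacna1e (87.7, 31.4, 49.8 and 53.6), Qpct (89.9, 39.3, 28.7 and 29.3), which encodes glutaminyl cyclase, the transporter gene Slco3a1 (159, 74.3, 109 and 104) and the histone gene Hist1h2ap (88.8, 37.5, 23.5 and 71.2) were also among the 10 largest falls, as was Polr2l. The young WT level at 6 or more UMIs was still highest for Itgae (245, 134, 185 and 198 CPM), Ctla2b (136, 36.2, 17.4 and 40.6) and Clnk (115, 57.2, 88.5 and 98.9), but in treated WT over young WT the fall was then under 2-fold for Itgae (-0.87), Slco3a1 (-0.85) and Qpct (-0.99). The share of cells with 6 or more UMIs, 82.8, 58.9, 73 and 69.6%, moves with these genes, and its part in the falls was not tested beyond that threshold.

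Immediate early and heat shock genes, which respond within minutes to stimuli and stress, had a lower summed level in the cDC1 of both knockouts. In miR-146a-/- over treated WT, 13 of 21 genes were at least 2-fold lower and 0 higher, all 21 ratios were below 0, and the median was -1.14 against -0.0074 over all genes. Fos, a subunit of the transcription factor AP-1, stood at 3165 CPM in young WT (95% interval 3107 to 3223), 2563 in treated WT (2504 to 2623), 727 in miR-146a-/- (694 to 761) and 1084 in DKO cDC1 (1049 to 1121). Its log2 ratio was -1.82 (-1.89 to -1.74) in miR-146a-/- over treated WT, with both WT libraries high and both knockouts low. Jun, its partner, had 735, 602, 241 and 261 CPM, Egr1, a zinc finger factor of the same early response, 355, 284, 60.7 and 84.5, and Klf2, a factor that keeps cells quiescent, 1013, 821, 322 and 389.7. Hspa1b, an inducible heat shock protein, had 627, 563, 281 and 242 CPM, whereas Hspa8, its constitutive relative, had 3935, 3762, 3736 and 3926 and hardly differed. In DKO over miR-146a-/-, 0 of 20 genes passed 2-fold (median 0.072), and in treated WT over young WT 1 of 21 did (Ier3, higher, median -0.12). With 6 or more UMIs, 12 of 21 genes were lower in miR-146a-/- over treated WT (median -1.0).

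The same list also had a lower sum in every other cell group of both knockout libraries, so the difference was not particular to cDC1. It summed to 18635, 17356, 9869 and 10494 CPM in cDC1, 25167, 22562, 12381 and 12912 in cDC2, 16674, 14395, 8049 and 9263 in pDC and 15861, 12404, 8422 and 8471 in B cells. In all kept cells other than cDC1 it summed to 16881, 14664, 8851 and 9864 CPM, and the bars of summed levels by cell group show both WT libraries above both knockouts in each group. With 1 library per group, genotype and the handling of a library cannot be told apart.

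**Figure D5:**
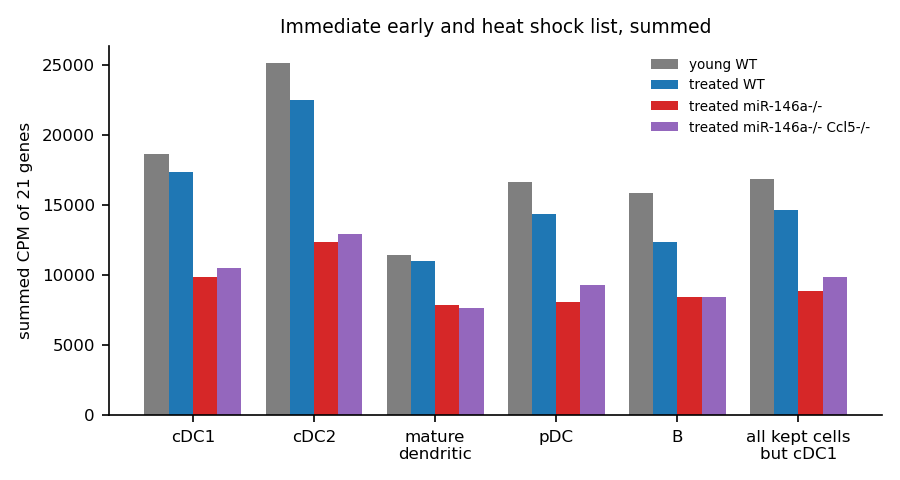
Summed CPM of the 21 immediate early and heat shock genes (bars) in cDC1, in 4 other gates and in all kept cells but cDC1, for each library. In cDC1 the sums are 18635, 17356, 9869 and 10494 CPM for young WT, treated WT, miR-146a-/- and DKO, and the knockout bars are lower in every group.

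Cell cycle genes were lower in miR-146a-/- cDC1 and highest in those of treated WT. In miR-146a-/- over treated WT, 8 of 18 measured genes were at least 2-fold lower and 0 higher (Mki67, Ccna2, Mcm5, Tyms, Rrm1, Rrm2, Stmn1 and Tk1), with a median of -0.97 against -0.0074. Mki67, a protein of dividing nuclei, stood at 113 CPM in young WT (95% interval 102 to 124), 179.97 in treated WT (165 to 196), 69.2 in miR-146a-/- (59.2 to 80.4) and 98.0 in DKO cDC1 (87.6 to 109). Rrm2, the subunit of ribonucleotide reductase made in S phase, had 59.6, 64.3, 8.10 and 53.3 CPM, and Pclaf, a PCNA-binding protein of DNA replication, 147, 174, 31.6 and 129.8. In both, miR-146a-/- was the low library, and 60% of its 20 Rrm2 UMIs lay in 1 cell. In DKO over miR-146a-/-, 3 of 10 genes were higher (Mcm5, Rrm2 and Stmn1) and 1 lower (Ube2c), with a median of 0.60. In treated WT over young WT, 2 of 18 were higher (Ube2c and Cenpf) and 0 lower, with a median of 0.42. Cells with at least 3 UMIs over 10 cycle genes after thinning made up 10.7, 17.8, 7 and 12.3% of cDC1, which is 18, 23, 7 and 17 cells, against 1.57, 4.99, 1.12 and 1.64% of thinned B cells. The list at 6 or more UMIs had 11 of 18 genes lower in miR-146a-/- over treated WT (median -1.10). Treated WT had the highest sum of the list in cDC1, cDC2 (1969, 2584, 1781 and 1354 CPM), pDC (156, 1438, 529.8 and 158), B cells (734, 1200.5, 371 and 546) and all kept cells but cDC1 (843, 1183, 872 and 899), whereas in the mature dendritic gate it was DKO (842, 897, 317 and 1140.05). The lowest sum was that of miR-146a-/- in cDC1, B cells and the mature dendritic gate, but not in cDC2, pDC or all kept cells but cDC1.

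The transcription factors of cDC1 differed little between libraries. In treated WT over young WT, 1 of 8 measured factors was at least 2-fold higher (Relb) and 0 lower, with a median of -0.19. In miR-146a-/- over treated WT, 1 of 8 was lower (Zeb2, median 0.18), and in DKO over miR-146a-/- 1 of 8 (Relb, median -0.079). Id2, a factor that cDC1 need, had 1333, 1195, 1387 and 1344 CPM, and Zeb2, a factor of cDC2, pDC and monocytes that represses the cDC1 fate, 59.6, 117, 55.9 and 99.6. Zeb2 fell to 11.1, 21.0, 27.1 and 26.5 CPM at 6 or more UMIs, so most of its UMIs lay in the cells with fewer counts of the rule's genes. Id1, an inhibitor of helix-loop-helix factors, ranked behind only Xcl1 and Cd7 among the falls in miR-146a-/- over treated WT, and stood at 119.6 CPM in young WT (95% interval 109 to 131), 107 in treated WT (95.7 to 120.3), 12.1 in miR-146a-/- (8.20 to 17.3) and 21.0 in DKO cDC1 (16.3 to 26.6). Its log2 ratio in miR-146a-/- over treated WT was -3.13 (-3.74 to -2.60), both WT libraries were high and both knockouts low, and at 6 or more UMIs it stood at 131, 106, 12.8 and 18.5 CPM. In cDC2 Id1 was at 10.7, 13.5, 9.93 and 14.1 CPM, without such a gap between WT and knockouts, and in all kept cells but cDC1 at 6.66, 14.7, 4.79 and 6.34.

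Genes for taking up antigen and sensing damage included 1 difference that was seen across cell groups. Clec12a, an inhibitory receptor for uric acid crystals of dead cells, stood at 145 CPM in young WT (95% interval 133 to 158), 124 in treated WT (112 to 138), 51.0 in miR-146a-/- (42.5 to 60.7) and 133 in DKO cDC1 (120.3 to 146). Its log2 ratio was -1.28 (-1.59 to -0.99) in miR-146a-/- over treated WT and 1.37 (1.09 to 1.68) in DKO over miR-146a-/-, with miR-146a-/- the only low library. The same library was low in cDC2 (104, 106, 31.5 and 80.7 CPM), pDC (352, 258, 104 and 307) and B cells (15.9, 13.3, 4.22 and 11.0). Axl, a receptor for dying cells, had 15.5, 58.9, 26.3 and 24.0 CPM, was at least 2-fold higher in treated WT over young WT and lower in miR-146a-/- over treated WT, and fell to 7.06, 18.9, 6.65 and 5.63 CPM at 6 or more UMIs. Cd36, a scavenger receptor, had 207, 151, 144 and 153 CPM, and Cd207, a lectin found on some cDC1, had 25.0, 3.93, 0.405 and 9.56 CPM, below the 50 CPM of measured genes. Of the list without Clec9a of the rule, 1 of 7 genes was at least 2-fold higher in treated WT over young WT (median -0.28), 2 of 7 lower in miR-146a-/- over treated WT (median -0.067) and 1 of 6 higher in DKO over miR-146a-/- (median -0.018).

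The machinery of antigen presentation differed little between libraries. On MHC class I and cross-presentation, 0 of 21 genes in treated WT over young WT, 0 of 20 in miR-146a-/- over treated WT and 0 of 21 in DKO over miR-146a-/- passed 2-fold in either direction, with medians of 0.22, 0.027 and -0.11. Of all measured genes, 2.53, 0.512 and 1.07% were at least 2-fold higher in these comparisons, and 0.513, 2.78 and 1.33% lower. Counts of 0 in lists of this size are near those shares. B2m, the light chain of MHC class I, had 2163, 2455, 1905 and 1973 CPM, and Tap1, which pumps peptides into the endoplasmic reticulum, 278, 296, 337 and 301. On MHC class II, 1 of 13 genes was at least 2-fold higher in treated WT over young WT and 0 of 13 passed in either other comparison, with medians of -0.12, 0.051 and 0.0021 in the same order. H2-Aa, a class II chain, had 10831, 11459, 10856 and 11117 CPM, the invariant chain Cd74 32677, 30161, 31722 and 31151, and Ciita, the activator of class II genes, 242, 210.3, 253 and 232. The exception was Ifi30, a thiol reductase of lysosomes, at 629, 1309, 1371 and 1199.7 CPM with a log2 ratio of 1.06 (0.98 to 1.13). Young WT was also the lowest library for Ifi30 in cDC2 (1426, 2062, 2576 and 2606 CPM) and in all kept cells but cDC1 (218, 475, 519 and 648), and at 6 or more UMIs the gene stood at 531, 827, 951 and 896 CPM, under 2-fold.

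Genes upstream and downstream of miR-146a followed. Of the list of Toll-like receptors and adaptors, 5 genes were measured in each comparison. The only gene past 2-fold was Tlr12, which senses profilin of parasites, lower in treated WT over young WT at 117, 54.6, 53.0 and 59.5 CPM but under 2-fold at 6 or more UMIs (128, 78.7, 65.5 and 74.8). The medians of the list were -0.84, 0.36 and -0.028 in treated WT over young WT, miR-146a-/- over treated WT and DKO over miR-146a-/-. Its relative Tlr11 had 93.8, 49.6, 75.7 and 73.4 CPM, and Unc93b1, which carries such receptors to endosomes, 756, 582, 601 and 652. Irak1, with 2 seed matches, stood at 74.6 CPM in young WT (95% interval 66.0 to 84.1), 70.3 in treated WT (60.9 to 80.9), 65.6 in miR-146a-/- (55.9 to 76.5) and 74.6 in DKO cDC1 (65.5 to 84.6). Its log2 ratio in miR-146a-/- over treated WT was -0.10 (-0.41 to 0.21), and all 4 intervals overlapped. Irak2, with 2 matches, had 70.5, 101, 82.6 and 89.7 CPM, Rel, an NF-kB subunit with 4, 191, 282, 212 and 164, Traf6, with 4, 22.7, 39.3, 28.7 and 20.7, and Card10, with 1, 7.49, 4.29, 4.45 and 5.86. None of these 5 was at least 2-fold higher in miR-146a-/- than in treated WT, and Traf6 and Card10 lay below 50 CPM. Of all measured genes in that comparison, 0.512% were at least 2-fold higher and 2.78% lower. A count of 0 among so few genes is near those shares and says little about these targets. Of the whole list of targets and NF-kB genes, 0 of 14 passed 2-fold in miR-146a-/- over treated WT (median -0.037), 3 of 14 were higher in treated WT over young WT (median 0.51) and 1 of 14 was lower in DKO over miR-146a-/- (median -0.38). The 3 were Relb (67.1, 166, 185 and 92.2 CPM) and Nfkb2 (37.4, 76.8, 94.7 and 59.2), which form the complex of the alternative NF-kB pathway, and Bcl3 (20.5, 54.6, 82.2 and 42.9), a nuclear partner of NF-kB subunits, and the 1 lower in DKO was Relb. Nfkb2 and Bcl3 were below 50 CPM in young WT and counted as measured there only through treated WT. At 6 or more UMIs Relb alone was at least 2-fold higher in treated WT over young WT, at 41.5, 122, 89.6 and 57.9 CPM, and 0 genes passed in the other comparisons. Relb was 953 CPM in the treated WT cells with Ccr7 and Fscn1 and 88.7 in the others, and it is on the list of the mature program too.

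Costimulatory genes showed 1 difference. Cd40, the receptor through which helper T cells license dendritic cells, stood at 38.8 CPM in young WT (95% interval 32.7 to 45.8), 58.2 in treated WT (49.6 to 67.9), 134 in miR-146a-/- (119.97 to 149) and 78.3 in DKO cDC1 (69.0 to 88.6). Its log2 ratio was 1.20 (0.93 to 1.48) in miR-146a-/- over treated WT, miR-146a-/- was highest, and 1 cell held 23.6% of its UMIs there. Without cells holding another type's marker that ratio turned to -0.13. At 6 or more UMIs Cd40 was at 35.3, 38.8, 62.9 and 51.0 CPM, which is under 2-fold between these libraries. It was the only gene past 2-fold of 8 measured in miR-146a-/- over treated WT (median 0.28), with 0 of 7 in treated WT over young WT (median -0.084) and 0 of 8 in DKO over miR-146a-/- (median -0.41, all 8 below 0). Cd86, a ligand of the T-cell costimulatory receptor, had 278, 253, 276 and 219.8 CPM, Cd83, a maturation marker, 726, 685, 560.4 and 384, and Cd274, the ligand of PD-1, 33.6, 60.3, 63.2 and 56.7.

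Of the cytokine genes, Il12b rested on few cells and Il1b differed in cDC2 as well. Il12b, a chain of interleukin-12 that drives type 1 immunity, had 25.8, 239, 336 and 200.1 CPM, from 3, 14, 18 and 5 cells, and in young WT 1 cell held 92.5% of its UMIs. Its log2 ratio in treated WT over young WT was 3.2 (2.90 to 3.54), and at 6 or more UMIs it stood at 0.307, 185, 25.1 and 34.6 CPM, with only treated WT high. After thinning, 0.595, 6.98, 13 and 3.62% of cDC1 had a UMI, against 0.185, 0, 0 and 0% of thinned B cells. Il1b, an inflammatory cytokine, had 234, 277, 61.9 and 88.8 CPM and a log2 ratio of -2.16 (-2.42 to -1.91) in miR-146a-/- over treated WT, and both knockouts were low in cDC2 too (1165, 828, 412 and 477 CPM). The summed monocyte markers in cDC1, 1325, 1425, 782 and 1421 CPM, were also lowest in miR-146a-/-, with 7, 8, 8 and 8 of 8 detected, Lyz2 the most abundant and Vcan at 0 in young WT, and their part in the Il1b level was not tested. Il18 had 58.3, 33.6, 57.5 and 55.5 CPM and Il15, which sustains NK and memory CD8 T cells, 41.6, 37.1, 45.3 and 33.0. Of the cytokine list, 1 of 5 measured genes was higher in treated WT over young WT (Il12b, median 0.058), 1 of 4 lower in miR-146a-/- over treated WT (Il1b, median 0.36) and 0 of 5 passed in DKO over miR-146a-/- (median -0.051). The median of 0.36 turned to -0.598 at 6 or more UMIs, where Il12b was at least 2-fold lower too. It was -0.915 without cells holding another type's marker, -0.0912 at 3 or more UMIs and -0.13 without cycling cells.

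Among chemokine genes, Ccl5 stood highest in treated WT and differed in all 3 comparisons. In cDC1 of treated WT, 68 of 129 cells held its UMIs, and its log2 ratio was 1.77 (1.65 to 1.89) over young WT, -1.45 (-1.58 to -1.32) in miR-146a-/- over treated WT and -3.95 (-4.39 to -3.56) in DKO over miR-146a-/-. In miR-146a-/-, 26 of 100 cells held UMIs and 1 of them 40.8%, and after thinning 13.1, 18.6, 11 and 0.725% of cDC1 had a UMI against 10.1, 12.3, 6.73 and 2.24% of thinned B cells, the gauge of free RNA. A share of cDC1 with Ccl5 at or near that of B cells is not above free RNA, whereas the 11 treated WT cells with Ccr7 and Fscn1 held 6148 CPM. In cDC1 without both genes, Ccl5 stood at 169, 171, 26.8 and 17.4 CPM. Outside such cells treated WT was thus level with young WT, and both lay above the knockouts. Ccl5 in cells with 6 or more UMIs was at 62.0, 469, 30.2 and 8.84 CPM, with treated WT alone high. There 4 treated WT cells with both Ccr7 and Fscn1 were left, and their part in that level was not tested. Among receptors that bind Ccl5, Ccr1 had 3.61, 4.999, 1.62 and 3.08 CPM, while Ccr3, Gpr75 and Ackr2 were at 0 UMIs in every library. Cxcl9, which draws Cxcr3-bearing T cells, had 223, 138, 160.3 and 224 CPM, and Cxcl16, the ligand of Cxcr6, 140.1, 279.6, 255 and 185. Cxcl10, of the same family as Cxcl9, had 29.4, 56.4, 111 and 31.8 CPM, with 66.0, 70.9, 76.4 and 68.0% of its UMIs in 1 cell per library, so that cell decides each value.

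Over the whole list of chemokine ligands, 3 of 7 measured genes were at least 2-fold higher in treated WT over young WT (Ccl4, Ccl5 and Ccl22, median 1.00), 3 of 7 lower in miR-146a-/- over treated WT (Ccl4, Ccl5 and Ccl6, median -0.13) and 3 of 7 lower in DKO over miR-146a-/- (Cxcl10, Ccl5 and Ccl22, median -0.46). At 6 or more UMIs Ccl4 and Ccl6 were under 2-fold in miR-146a-/- over treated WT (0.0019 and -0.65) and Ccl4 also in treated WT over young WT (0.27), while Ccl22 was past it in all 3 comparisons, though above 50 CPM in miR-146a-/- alone. Ccl4 stood there at 50.1, 60.3, 60.4 and 37.4 CPM, Ccl6 at 52.8, 51.4, 32.8 and 33.0 CPM and Ccl22 at 11.1, 37.2, 115 and 33.8 CPM. Of the chemokine receptors without Xcr1 of the rule, Ccr7 alone passed 2-fold, higher among 5 in treated WT over young WT (median -0.10) and lower among 4 in DKO over miR-146a-/- (median 0.12), with 0 of 4 in miR-146a-/- over treated WT (median -0.32). Ccr2, a receptor for entry from blood, had 332, 256, 219 and 266 CPM, highest in young WT. Ccl4 is made by NK cells and macrophages as well, and the NK and macrophage markers summed to 196, 146, 7.69 and 188 and 119, 254, 89.5 and 396 CPM in these cells, lowest in miR-146a-/-, as given with the marker lists, and their part in the Ccl4 level was not tested beyond that threshold.

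Interferon-stimulated genes were lower in DKO than in miR-146a-/- cDC1 for some members. In DKO over miR-146a-/-, 3 of 13 were at least 2-fold lower (Isg15, Oasl1 and Slfn5) and 0 higher, with a median of -0.25 against 0.018. Isg15, a ubiquitin-like protein, had 151 CPM in young WT (95% interval 139 to 164), 134 in treated WT (121 to 148), 151 in miR-146a-/- (136 to 167) and 63.2 in DKO cDC1 (54.8 to 72.5). Slfn5, a schlafen family member, had 117, 89.6, 119.8 and 57.7 CPM, and Oasl1 30.8, 26.8, 50.6 and 18.5, with 65.8% of the young WT UMIs in 1 cell. Oasl1 reached 50 CPM in miR-146a-/- only, the library where it was highest. For Isg15 and Slfn5 DKO was the low library, and at 6 or more UMIs they stood at 153, 80.8, 108 and 44.6 CPM and 124, 86.5, 112 and 51.5 CPM. In all kept cells but cDC1, Isg15 had 168, 193, 121 and 98.8 CPM, also lowest in DKO. In miR-146a-/- over treated WT 0 of 14 passed 2-fold (median 0.15), and in treated WT over young WT 1 of 11 did (Gbp2, higher, median -0.038), at 32.7, 70.3, 69.2 and 58.3 CPM. At 6 or more UMIs, Gbp2 (22.4, 28.8, 16.9 and 11.3 CPM) and Oasl1 (33.5, 26.2, 24.6 and 15.3) no longer passed 2-fold in these comparisons.

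Genes of metabolism moved within 2-fold for the most part. All 11 measured glycolysis genes lay above 0 in miR-146a-/- over treated WT, with a median of 0.33 against -0.0074, yet 0 passed 2-fold. Gapdh had 886, 916, 1312 and 1099 CPM and Ldha, which makes lactate, 672, 623, 848 and 845, both higher in the knockouts than in either WT library. The list summed to 3686, 3855, 4964 and 4639 CPM in cDC1 and 3645, 4334, 5184 and 4785 in all other kept cells, where miR-146a-/- was highest too. The glycolysis median in DKO over miR-146a-/- was -0.028 and in treated WT over young WT 0.12, with 0 of 11 and 0 of 10 past 2-fold. On the lipid and sterol list, 2 of 10 genes were higher in treated WT over young WT (Apoe and Fabp5, median -0.076), 1 of 8 lower in miR-146a-/- over treated WT (Apoe, median -0.037), and 1 higher (Apoe) and 1 lower (Fabp5) of 7 in DKO over miR-146a-/- (median -0.23). Fabp5, a fatty acid carrier, had 23.3, 123, 191 and 64.7 CPM and at 6 or more UMIs 22.7, 55.6, 26.1 and 18.9 CPM. Lipa, the lysosomal acid lipase, had 111, 116, 90.3 and 117 CPM. Apoe, an apolipoprotein of macrophages and hepatocytes, had 79.9, 334, 57.5 and 168 CPM, but 1 cell held 47.1% of its UMIs in treated WT and 71.1% in DKO. Without cells holding another type's marker, Apoe turned to a log2 ratio of 1.10 in miR-146a-/- over treated WT.

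Several of the largest ratios came from 1 or a few cells that carried RNA of another cell type. Ccl24, an eosinophil chemokine of macrophages, was at least 65-fold higher in miR-146a-/- than in treated WT, which had 0 UMIs (3 counts as the floor), but 1 cell held all 172 UMIs. The neutrophil genes Retnlg, S100a8 and S100a9, among the rises in DKO over miR-146a-/-, had 280, 489 and 929 UMIs in DKO, of which 1 cell held 99.6, 99.6 and 99.7%, and Retnlg was at least 71.1-fold higher than in miR-146a-/- at 0 UMIs. Gzma of NK cells had 81.8, 46.4, 1.21 and 82.3 CPM, with 65.9% of the DKO UMIs in 1 cell, and Xcl1, the ligand of Xcr1 made by NK cells, had 8.88, 57.8, 0.405 and 10.5 CPM, with 79.0% of the treated WT UMIs in 1 cell. Cd7, of NK and T cells, had 17.2, 60.3, 3.24 and 37.3 CPM and Ctsd, the protease cathepsin D, 24.4, 66.1, 14.2 and 55.8, and for both miR-146a-/- was lowest. C1qa, C1qb and C1qc, complement genes of macrophages, had 28.9, 61.4, 17.8 and 93.7, 45.2, 105, 35.6 and 178 and 25.0, 53.2, 12.96 and 82.0 CPM, highest in DKO. C1qb was still 15.05, 43.0, 3.07 and 52.3 CPM at 6 or more UMIs, with 19.0, 19.9, 1.54 and 28.1 CPM of the NK gene Nkg7. Without cells holding 1 of the 8 markers of other types, among them C1qa, Ncr1 and S100a8, the log2 ratio in DKO over miR-146a-/- was -3.12 for C1qb, -1.21 for C1qc, -3.12 for Gzma and -1.02 for S100a9. The markers removed belong to the same cell types as these 4 genes, so the loss of these rises follows in part from the filter. At 6 or more UMIs the ratio was 3.99 for C1qb, 3.95 for C1qc, 5.33 for Gzma and -1.20 for S100a9. Whether the rises belong to cDC1 was not tested.

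A few genes with large ratios were low in the sum over all kept cells but cDC1. Arhgap22, a GTPase-activating protein for Rac, stood at 83.5 CPM in young WT (95% interval 74.3 to 93.5), 76.1 in treated WT (66.2 to 87.0), 205 in miR-146a-/- (188 to 224) and 119 in DKO cDC1 (107 to 131). Its UMIs lay in 78 of 100 miR-146a-/- cDC1, where it was highest, and its log2 ratio over treated WT was 1.43 (1.20 to 1.67). Arhgap22 was at 75.9, 67.6, 137 and 105 CPM at 6 or more UMIs, in cDC2 at 90.6, 52.9, 74.7 and 88.5, and in all kept cells but cDC1 at 5.02, 10.2, 10.2 and 18.7. Plpp1, a phospholipid phosphatase, had 87.4, 51.4, 113 and 101 CPM, Sept3, a septin, 65.7, 34.99, 89.1 and 82.9, and Gcsam, a signalling protein of germinal center B cells, 123, 66.4, 141 and 112. In all kept cells but cDC1 they had 4.52, 4.90, 5.34 and 6.13, 1.27, 0.492, 1.44 and 1.16 and 5.89, 4.40, 1.71 and 1.81 CPM. In cDC1, treated WT was lowest and miR-146a-/- highest for each of these 3 genes, and at 6 or more UMIs they stood at 94.6, 68.7, 134 and 131, 72.2, 51.4, 112 and 104 and 136, 96.0, 177 and 141 CPM. The share of cDC1 with 6 or more UMIs was lowest in treated WT too, at 58.9%.

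For 3 other named genes, the same libraries stood high or low in cDC1 and in the sum over all kept cells but cDC1. Gm42031, a predicted gene, had 94.9, 84.3, 91.9 and 406 CPM in cDC1, 131, 114, 102 and 449 in cDC2 and 52.1, 63.6, 59.0 and 258 in all kept cells but cDC1, with DKO high in each. Polr2l, a subunit of RNA polymerases, had 62.1, 27.9, 68.8 and 54.6 CPM in cDC1 and 54.0, 28.9, 46.4 and 43.1 in the other kept cells, with treated WT low in both. Vps37b, part of a complex that sorts proteins in endosomes, had 38.6, 55.0, 10.1 and 19.4 CPM in cDC1 and 403, 308, 146 and 149 in the other kept cells, with both knockouts low. Treated WT was above young WT for Vps37b in cDC1 and below it in the other kept cells. These 3 differences were not particular to cDC1.

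By list medians, cDC1 were higher in the antigen uptake list than cDC2 and pDC of the same library, and than mature dendritic cells in the treated libraries. In these medians a gene counted when either cell group of the library had 50 CPM or more, so some genes entered only through cDC1. The median log2 ratio of that list without Clec9a of the rule was 3.16, 3.66, 4.22 and 4.19 in cDC1 over cDC2, 3.74, 2.43, 3.72 and 3.57 over pDC and -0.14, 3.04, 2.87 and 3.10 over mature dendritic cells. The medians rest on 6, 7, 6 and 6 genes over cDC2 and over pDC and on 9, 7, 6 and 6 over mature dendritic cells. Tlr3 and Cd24a of this list are also on the cDC1 marker list. High medians over these few genes thus follow in part from the choice of genes and do not measure uptake. In young WT the list with Clec9a summed to 1916.6 CPM in cDC1, of which Clec9a made 676, against 716 in mature dendritic cells. For MHC class II the median was -0.27, -0.35, -0.21 and -0.23 over cDC2 and 1.45, 1.03, 1.11 and 1.22 over pDC, so cDC1 lay near cDC2 and above pDC in every library. The MHC class I list had medians of 0.28, 0.40, 0.67 and 0.45 over cDC2. Toll-like receptors and adaptors had 1.69, 0.37, 2.43 and 2.11 over cDC2 and 0.21, 0.010, -0.15 and -0.020 over pDC. The cDC2 gate held only 24 cells and the mature dendritic gate 11 in young WT, which limits these values.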

How the data were processed

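Gene expression was measured in single CD45+ liver cells of 4 libraries, 1 per group. The deposited matrices hold raw UMI counts per gene and cell, made by the authors with Cell Ranger 7.0.1 per the file headers on the mm10 genome. Cells with 600 to 6000 genes and at most 5% mitochondrial UMIs were kept, and cDC1 were chosen by the counts of 6 genes. Nothing was clustered or corrected for free RNA, and doublets were not called.

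UMIs of each gene symbol were summed over the cDC1 of a library and divided by their total, and 0.5 counts were added before log2 ratios were taken. Mitochondrial, ribosomal protein and antigen receptor variable genes were left out of comparisons. With 1 library per group no test was made. Members and gene lists were chosen with earlier results of these data known. Named genes were those of the rule, the markers and lists, Ccl5 and its receptors, the 20 leading genes and the 10 largest rises and falls of each comparison. Sums ranged from 2469809 to 3604812 UMIs per library. Exact 95% intervals give the counting error of each level, not its spread between cells or mice.

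Alternatives changed the limits on cells, the threshold on Xcr1 and Clec9a, the scaling (TMM factors of edgeR 4.0.16 in R 4.3.3), the added counts, the minimum level, and the cells included. The threshold of 6 UMIs, removal of each gene's top cell, and genes compared without an upper limit were added after seeing the data. Python 3.11.15, NumPy 2.4.6, SciPy 1.17.1 and pandas 2.3.3 were used, with gene positions and 3' UTRs from GENCODE M21 and the microRNA from RefSeq. Interval coverage and recovery of 4-fold changes were tested on simulated data.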

Additional observations from a re-analysis of the deposited data

How the results depend on the processing

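Shares of cDC1 depended on the threshold and on the base. Differences are in percentage points. With at least 1 UMI of each of Xcr1 and Clec9a, miR-146a-/- minus treated WT moved from -0.271 to 0.1 (-0.21 to 0.415), and after thinning to 2000 UMIs treated WT minus young WT moved from -0.0947 to -0.599 (-0.899 to -0.298). As a share of gated dendritic cells, a base of fewer cells by construction, miR-146a-/- minus treated WT was -12.6 (-20.5 to -4.49), DKO minus miR-146a-/- 0.543 (-6.7 to 7.67) and treated WT minus young WT -17.2 (-25.2 to -8.79). The share of gated dendritic cells was not repeated at 6 or more UMIs. With 10% mitochondrial UMIs, a lower limit of 200 genes, no upper limit, at least 3 UMIs, at least 6 UMIs, or without cells holding 1 of 8 markers of other types, all 3 differences lay within their first intervals, although the treated WT minus young WT interval no longer included 0 at 6 or more UMIs or with at least 1 UMI of each gene, where the difference was -0.45 (-0.76 to -0.135).

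Counts of genes past 2-fold rose with more genes. The numbers higher and lower in miR-146a-/- over treated WT (16 and 87), DKO over miR-146a-/- (33 and 41) and treated WT over young WT (79 and 16) became 96 and 360, 168 and 131, and 256 and 96 with a minimum of 10 CPM, and 1537 and 2494, 2080 and 1684, and 2022 and 1837 with no minimum. With at least 3 UMIs of Xcr1 and Clec9a, 7 genes were higher in miR-146a-/- and 16 in DKO, of which 6 and 14 were the same genes as before. With no upper limit on genes the numbers were 10 and 21, of which 9 and 18 were the same genes. At least 6 UMIs gave 14 higher and 13 lower in DKO, and 37 higher and 9 lower in treated WT. Without cells holding another type's marker, 50 were higher and 12 lower in DKO, of which 17 and 6 were the same genes as before. Without cycling cells, 119 were higher and 37 lower in treated WT, and a mean over cells gave 32 lower in treated WT. The cause of these changes was not tested. Under TMM factors, a prior of 5 counts, removal of each gene's top cell or of cells with Ccr7 and Fscn1, all 6 counts were within 1.5 times the first, and TMM factors moved the median of all genes by 0.0803, -0.0326 and -0.054 in the 3 comparisons in this order.

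Of the 60 log2 ratios of the 10 largest rises and falls, reversals came from settings that removed cells. Without cells holding another type's marker, 8 reversed, 33 moved out of their interval and 19 stayed within it. Cd40 became -0.13 and Apoe 1.10 in miR-146a-/- over treated WT, Gzma -3.12, S100a9 -1.02, C1qc -1.21, C1qb -3.12 and Atxn1 0.12 in DKO over miR-146a-/-, and Xcl1 -0.13 in treated WT over young WT. With at least 6 UMIs, 4 reversed, Lad1 to -0.34 in miR-146a-/- over treated WT, S100a8 to -3.34 and S100a9 to -1.20 in DKO over miR-146a-/- and Xcl1 to -0.97 in treated WT over young WT, and 35 moved. With at least 3 UMIs S100a8 became -3.31 and S100a9 -1.71, and without the top cell of each gene -1.49 and -1.96, because that cell held 99.6 and 99.7% of their DKO UMIs. Without cycling cells Rrm2 became -0.96 in DKO over miR-146a-/-, and without cells with Ccr7 and Fscn1, Fscn1 became -2.62 in treated WT over young WT, which follows from the cells removed. The cause of the other reversals was not tested. The numbers that moved without reversing were 0 under TMM factors, 3 with a prior of 5 counts, 6 with a mean over cells, 10 with no upper limit, 12 without cells with Ccr7 and Fscn1, 19 without cycling cells, 19 without each top cell and 20 with at least 3 UMIs.

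Of 48 list medians, 7 moved out of their interval without cells holding another type's marker, 4 without cycling cells, 1 at 6 or more UMIs, 1 with no upper limit and 0 in the other 6 settings. The interval of a median over few genes is wide, and the sign changed for 9 medians without cells holding another type's marker, 9 without cycling cells, 6 at 6 or more UMIs, 5 with a mean over cells, 4 with at least 3 UMIs, 4 with no upper limit, 4 without cells with Ccr7 and Fscn1, 3 under TMM factors, 3 without each top cell and 0 with a prior of 5 counts. The median farthest from 0 to change sign was that of cell cycle genes in treated WT over young WT, from 0.42 to -0.35 without cycling cells, by construction. The mature program in miR-146a-/- over treated WT went from 0.11 to -0.45 without cells holding another type's marker and to -0.39 at 6 or more UMIs over the same genes, and the NF-kB list in DKO over miR-146a-/- from -0.38 to 0.011 without cells holding another type's marker. The causes were not tested. The mature program in treated WT over young WT and the immediate early list in miR-146a-/- over treated WT kept their sign in all 10 settings.

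Depth limits the results in 3 ways. Genes under 50 CPM and 20 UMIs were not compared, which leaves out most cytokines and receptors. The smallest group had 100 cDC1, so 1 cell can carry a gene, and a share of 0 cells says little. Deeper cells pass a threshold on counts more easily, and libraries differed in UMIs per kept cell.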
